A study of Mus musculus with 6 samples.

Results

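Glutamate is the main excitatory transmitter of cortical neurons, and the 9 genes described here encode 2 of its ion channel families and their scaffolds. Gria1, Gria2, Gria3 and Gria4 encode the subunits of AMPA receptors, which assemble as tetramers, open within milliseconds of glutamate binding and carry most of the fast excitatory current. Grin1 encodes the obligatory subunit of NMDA receptors, while Grin2a and Grin2b encode the GluN2 subunits that set the kinetics of the channel and that are exchanged as the cortex matures. Grip1 and Grip2 encode multi-PDZ proteins that bind the cytoplasmic tails of AMPA receptor subunits and take part in their transport and anchoring.

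The genes were chosen by name. Every position with a cytosine in the reference and a gene label holding one of the 9 symbols was taken from the lists of all 6 libraries, which gave 11086 of the 5240657 positions listed in the series, in 9 of 15994 labelled genes. The libraries are RNA bisulfite sequencing (RNA BS-seq) of poly(A) RNA, in which unmethylated cytosines are converted and read as T, while 5-methylcytosine (m5C) is still read as C. The question put to them was how coverage and m5C of these transcripts moved between rest, 2 h and 6 h of depolarization.

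The cells were cortical neurons of E16.5 wild-type C57BL/6 embryos, male and female pooled, cultured for 7 days. All 3 groups were silenced overnight with 1 µM tetrodotoxin (TTX), which blocks voltage-gated sodium channels, and 100 µM DL-AP5, an NMDA receptor antagonist, so the resting group is a silenced culture. The groups then differed in the time spent in 55 mM KCl, which was none (0 h, called rest here), 2 h or 6 h, with 2 biological replicates each. A bulk library cannot tell fewer cells of a type from less RNA per cell.

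The lists hold cytosines with at least 10 reads and at least 1 unconverted read. Median coverage of the listed cytosines ranged from 324 to 480 reads per library, and 3504 to 5712 positions of the 9 genes were listed per library. Because the positions listed change from library to library, the coverage of a gene was compared over positions listed in all 6 libraries, scaled by library, with limma. Gria1 (179 positions), Gria2 (304, without positions that share a label with another gene), Grin1 (26) and Grin2b (11) had the required 10 positions. Gria3, Gria4, Grip1 and Grip2 were compared in a second fit, chosen after the data were seen, that estimates a library effect from every position listed in at least 2 libraries. Grin2a had only 12 positions listed in at least 2 libraries and was not compared.

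Depolarization was visible in the activity genes. Fos, a transcription factor gene induced by calcium influx, rose 146-fold at 2 h and was still 80.3-fold above rest at 6 h (limma adjusted p = 2.89e-06 and 4.20e-06). All 9 neuronal marker genes on the list used were measured in the second fit, from which the other marker values below also come. At 6 h, 3 were higher and 3 lower than at rest. Gad1 and Gad2, which encode the enzymes of GABA synthesis, rose 2.52-fold and 2.27-fold, and Snap25 rose 1.57-fold. Tubb3, a neuronal tubulin gene, Slc17a7, which encodes a vesicular glutamate transporter, and Rbfox3 were at 0.453, 0.743 and 0.820 times rest. Map2, Syn1 and Slc17a6 were not called. The part of these shifts in the receptor changes was not tested. Csf1r, Itgam and P2ry12 of microglia, Cldn5 of endothelial cells and Sox2 of progenitors were listed in no library, while Cx3cr1 of microglia was listed in all of them and was lower at 6 h (log2 change -0.87, limma adjusted p = 2.84e-04). Aif1 of microglia and Kdr and Pecam1 of endothelial cells were listed in some libraries. Astrocyte markers were present in every library. The 6 measurable ones summed to scaled reads per cytosine of 3556 to 3645 at rest, of 3372 to 3580 after 2 h and of 2756 to 2940 after 6 h, with 4 of 6 called lower at 6 h than at rest, where 66.4% of all genes were called in either direction. Slc1a2, Slc1a3, Gfap and Aldh1l1 were among the genes listed in every library, and the part of astrocyte RNA in the receptor changes was not tested. Of the 4 measurable oligodendrocyte lineage markers, 2 were higher and 1 lower at 6 h than at rest, and of the 3 measurable markers of dividing progenitors, 1 was lower.

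At rest, Gria1, Gria2 and Grin1 were the most covered of the 8 measurable genes per listed cytosine. The order of Gria1 and Gria2 depended on the positions used. Gria1 had 1009 and 949 scaled reads per cytosine in the second fit against 927 and 804 for Gria2, and over positions listed in all 6 libraries Gria2 was above Gria1, with 3169 and 2756 against 2671 and 2461. In the second fit, Gria2 and Grin1 (867 and 805) overlapped and could not be ordered. Grip1 (265 and 263), Gria4 (224 and 185) and Grin2b (168 and 135) followed in that fit, each above the next in both libraries. This order also depended on the positions used. Over the coding sequence alone, Gria4 had 400 and 319 scaled reads per cytosine at rest, Grip1 332 and 321, and Grin2b 308 and 230. Gria3 (120 and 114) and Grip2 (106 and 119) overlapped at the bottom.

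**Figure D1:**
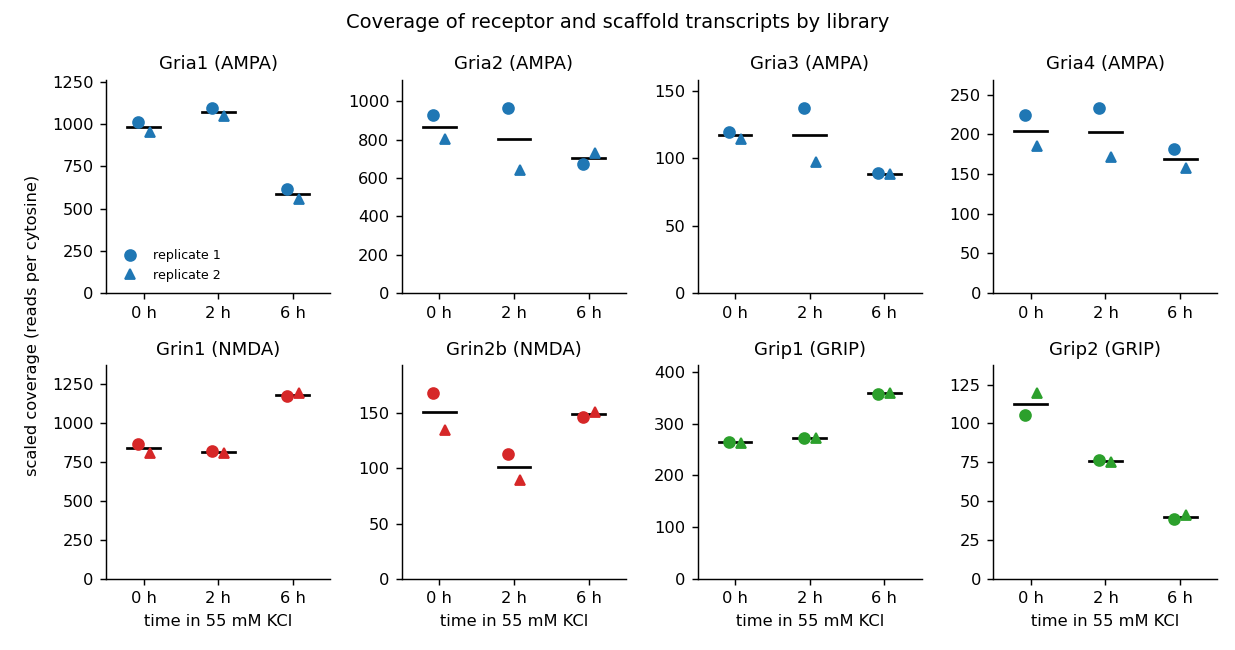
Scaled coverage per listed cytosine (y axis, reads, each panel from 0) of the 8 measurable genes at rest and after 2 h and 6 h of KCl, from the fit over all positions listed in at least 2 libraries. Circles are replicate 1, triangles replicate 2 and lines the mean of the 2 libraries. Gria1 and Grip2 sit lowest at 6 h, Grin1 and Grip1 highest at 6 h, and Grin2b lowest at 2 h, each without overlap with the 0 h libraries.

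Gria1 coverage fell late. Gria1 (chr11:57011387-57330244, plus strand, GRCm38) encodes GluA1, a subunit whose insertion at synapses is regulated by activity. Its scaled coverage stood at 2671 and 2461 reads per cytosine at rest, 2624 and 2483 after 2 h, and 1508 and 1328 after 6 h. Both 6 h libraries lay below the other 4. The change was -0.01 ± 0.08 (SE) on the log2 scale for rest vs. 2 h, then -0.86 ± 0.08 for rest vs. 6 h and -0.85 ± 0.08 for 2 h vs. 6 h, with limma adjusted p = 0.963, 3.37e-04 and 7.47e-04. Coverage at 6 h was thus 0.552 times that at 0 h.

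Gria2, on the minus strand of chr3:80681450-80802835, encodes GluA2, the subunit that keeps AMPA receptors impermeable to calcium. Its coverage was 3169 and 2756 reads per cytosine at rest, 3034 and 1890 after 2 h, and 2082 and 2195 after 6 h. The 6 h libraries lay below both 0 h libraries, while the 2 h replicate 2 library was the lowest of all 6 and replicate 1 was close to rest. The log2 change for rest vs. 6 h was -0.47 ± 0.21 and was not called by limma (adjusted p = 0.101). Without 2 h replicate 2 it was -0.48 (limma adjusted p = 4.40e-04), without 2 h replicate 1 it was -0.47 (limma adjusted p = 4.31e-04), and DESeq2 gave adjusted p = 0.0344. Without 2 h replicate 2 the change for 2 h vs. 6 h was also called, at -0.50 (limma adjusted p = 0.00227).

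The other AMPA receptor genes had fewer reads and no called change. Gria3 (chrX:41400854-41678601, plus strand) had 120 and 114 reads per cytosine at rest, 138 and 97.4 after 2 h, and 89.0 and 88.2 after 6 h, and Gria4 (chr9:4417896-4796234, minus strand) had 224 and 185, 234 and 172, and 181 and 157. Replicate 2 was the lower library at 2 h for both, as for Gria2. For rest vs. 6 h the log2 change was -0.40 ± 0.17 for Gria3 and -0.27 ± 0.17 for Gria4 (limma adjusted p = 0.0738 and 0.192). Without 2 h replicate 2, Gria3 passed the threshold for rest vs. 6 h and also 2 h vs. 6 h (limma adjusted p = 0.0130 and 0.00448), and Gria4 for 2 h vs. 6 h (adjusted p = 0.0210). Without 2 h replicate 1, Gria3 passed for rest vs. 6 h (limma adjusted p = 0.0149), and Gria2 for rest vs. 2 h (log2 change -0.65, limma adjusted p = 8.60e-04). With all libraries kept, limma thus called only Gria1 of the 4 AMPA receptor genes.

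Grin1 rose at 6 h. Grin1, on the minus strand of chr2:25291181-25319187, had 1078 and 1011 reads per cytosine at rest, 951 and 967 after 2 h, and 1341 and 1368 after 6 h. The 6 h libraries lay above the other 4, and the 2 h libraries just below rest. The log2 change was -0.12 ± 0.06 for rest vs. 2 h, 0.38 ± 0.06 for rest vs. 6 h and 0.50 ± 0.06 for 2 h vs. 6 h (limma adjusted p = 0.171, 0.00220 and 0.00137).

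Grin2b fell early and came back. The gene lies on the minus strand of chr6:135713233-136173511, and its GluN2B subunit predominates in the immature cortex. Coverage was 590 and 469 reads per cytosine at rest, 334 and 259 after 2 h, and 477 and 477 after 6 h. The 2 h libraries were the lowest, without overlap with either other time point. The log2 change was -0.84 ± 0.16 for rest vs. 2 h, then 0.70 ± 0.16 for 2 h vs. 6 h and -0.14 ± 0.16 for rest vs. 6 h (limma adjusted p = 0.0137, 0.0141 and 0.471). The call for rest vs. 2 h was lost without 0 h replicate 1 (limma adjusted p = 0.0783), and the call for 2 h vs. 6 h without either 6 h library (0.0736 and 0.0754). The second fit, over 763 to 1624 positions per library, gave a smaller fall of -0.58 ± 0.16 at 2 h (limma adjusted p = 0.0233).

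Grin2a (chr16:9567898-9995560, minus strand) encodes GluN2A, which becomes the leading GluN2 subunit after birth. It was listed at 24 and 23 positions at 0 h, 19 and 16 after 2 h, and 135 and 23 after 6 h, and no position was listed in all 6 libraries. Its mean coverage at the listed positions was 42.1 and 41.5 reads at 0 h, 49.7 and 20.4 after 2 h, and 57.5 and 60.8 after 6 h, unscaled. These are different cytosines in each library, so no comparison was made.

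The 2 scaffolds moved apart. Grip1 (chr10:119453830-120087261, plus strand) had 265 and 263 reads per cytosine at rest, 271 and 272 after 2 h, and 358 and 359 after 6 h. Replicates differed by under 2 reads at every time point, with the 2 h libraries just above rest and the 6 h libraries above both. The log2 change for rest vs. 6 h was 0.44 ± 0.07, and for rest vs. 2 h it was 0.04 ± 0.07 (limma adjusted p = 0.00101 and 0.671).

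Grip2, on the minus strand of chr6:91761509-91827250, had 106 and 119 reads per cytosine at rest, 76.4 and 75.2 after 2 h, and 38.5 and 40.8 after 6 h. The 3 time points did not overlap, and each was lower than the one before. The log2 change was -0.57 ± 0.14 for rest vs. 2 h, -1.50 ± 0.14 for rest vs. 6 h and -0.94 ± 0.14 for 2 h vs. 6 h (limma adjusted p = 0.0175, 9.10e-05 and 9.85e-04). Coverage at 6 h was 0.353 times that at rest, the largest change among the 8 measurable genes. These values rest on 7 to 79 positions per library, and leaving out 0 h replicate 1 or replicate 2 ended the call at 2 h (limma adjusted p = 0.0573 and 0.125) but not at 6 h.

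**Figure D2:**
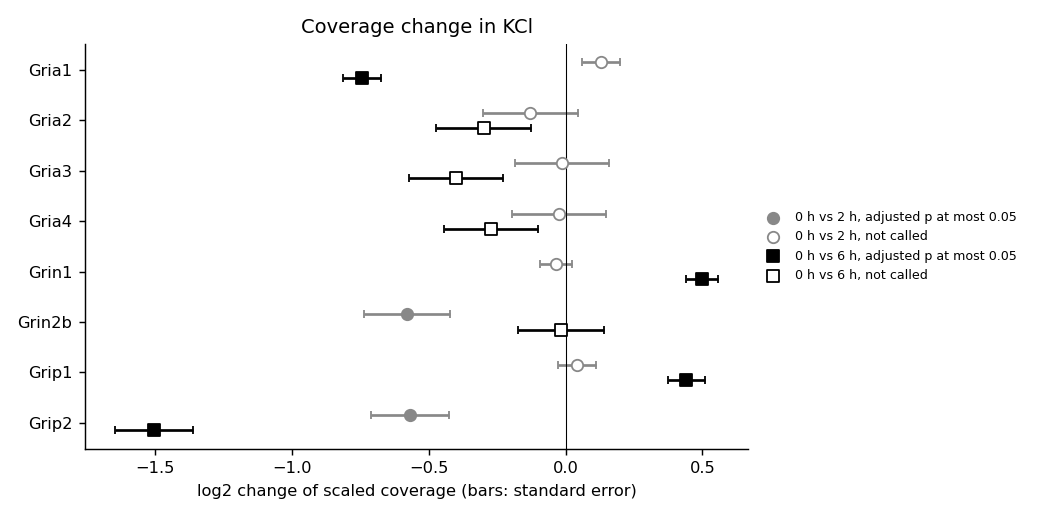
Log2 change of scaled coverage (x axis) for rest vs. 2 h (grey circles) and rest vs. 6 h (black squares) of the 8 measurable genes, all from the fit over positions listed in at least 2 libraries; bars are standard errors, and filled symbols have a limma adjusted p of at most 0.05. The rest vs. 6 h values run from -1.50 for Grip2 to 0.50 for Grin1.

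Over positions listed in all 6 libraries, 1 of the 4 genes tested was called for rest vs. 2 h, 2 for rest vs. 6 h and 3 for 2 h vs. 6 h, where 27.2%, 61.0% and 49.8% of all 2075 genes tested were called. In the second fit, 2, 4 and 5 of 8 genes were called, where 39.7%, 66.4% and 64.6% of all 8400 genes were. The median log2 change over the 8 genes was -0.03 at 2 h and -0.29 at 6 h against rest, with -0.01 and 0.01 over all genes. When coverage was instead summed over every listed position, whose number differs between libraries, limma no longer called Grin1, Grip1, Grin2b for rest vs. 2 h or Grip2 except for rest vs. 6 h, and Gria1 was still called.

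The changes of Gria1, Grin1 and Grin2b had the same direction in each segment named here. For Gria1, the log2 change for rest vs. 6 h was -0.76 over the coding sequence, -0.72 over the 3′ UTR and -0.62 over the 5′ UTR. Grin1 rose by 0.48 over its coding sequence and by 0.64 over its 3′ UTR. Grin2b, whose annotated 3′ UTR holds 3238 of its 4141 listed positions, fell by 0.64 over the coding sequence and by 0.58 over the 3′ UTR at 2 h. No tests were made between segments.

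AMPA receptor subunits carry alternative flip and flop exons of equal length, which change how fast the receptor desensitizes. In Gria2, the flip exon (chr3:80690404-80690518) had 6335 and 5486 scaled reads per cytosine at rest, 6202 and 3586 after 2 h, and 4294 and 4282 after 6 h. The flop exon (chr3:80691320-80691434) had 1864 and 1334 at rest, 1476 and 850 after 2 h, and 1703 and 1642 after 6 h. Flip was above flop in every library, with a log2 change of -0.46 for flip and 0.08 for flop between 0 h and 6 h, which was not tested. The flop values rest on 4 to 13 positions per library, none of them listed in all 6, and the flip values on 17 to 19. In Gria1, 13 to 19 cytosines of the flip exon (chr11:57310608-57310722) were listed per library, at 1956 and 1802 scaled reads at rest and 1217 and 991 at 6 h, while the flop exon (chr11:57309769-57309883) had as few as 1 listed cytosine in a library.

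No cytosine of an AMPA receptor transcript was methylated by the rule used here, a level of at least 10% with at least 6 methylated reads. Most nuclear genes held no such position either, with 24.3% of the 7705 that had at least 200 listed positions holding any. The 4 AMPA receptor genes had 4233 listed positions, 3031 of them covered by at least 100 reads in a library, and coverage reached 9990 reads. At least 6 unconverted reads were found at 489 of these positions in a library, but the highest level among them was 4.92%, in Gria3. The unconverted share of Gria1 over its 179 positions was 0.0999% and 0.112% at rest, 0.102% and 0.128% after 2 h, and 0.181% and 0.145% after 6 h. That of all nuclear genes was 0.103% to 0.106% in 5 libraries and 0.146% in 6 h replicate 1, the library with the most listed positions. Over the positions under 10%, the share of Gria2 was 0.0998% to 0.190%, that of Grin1 0.120% to 0.227% over 25 positions and that of Grin2b 0.396% to 0.716% over 9. Each of these positions, listed in all 6 libraries, holds at least 1 unconverted read per library, so the share has a floor that rises as coverage falls. For Gria1, replicate 1 had 499 unconverted of 499627 reads at rest and 468 of 257919 at 6 h. The shares are thus not comparable between genes or time points of unlike coverage. In 6 h replicate 1, 40 Gria3 positions had levels of at least 10% with at least 3 methylated reads, and 28 of them lay within 150 nt at 13 to 19 reads.

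**Figure D3:**
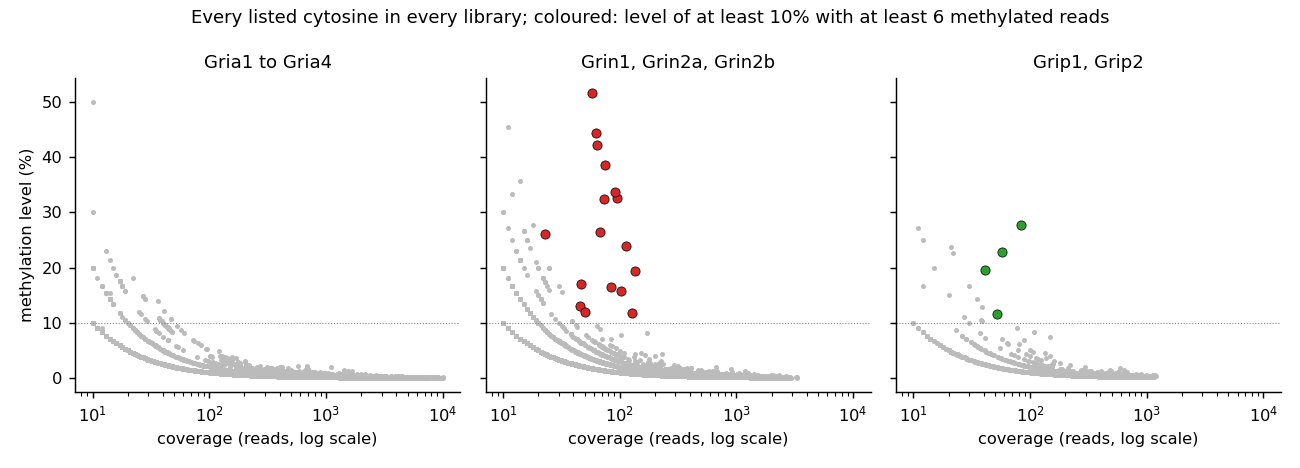
Methylation level (y axis, %) against coverage (x axis, reads, log scale) of every listed cytosine in every library, for the AMPA receptor genes, the NMDA receptor genes and the scaffold genes. Coloured points have a level of at least 10% with at least 6 methylated reads, and the dotted line marks 10%. No point of Gria1 to Gria4 is coloured, and their coverage reaches 9990 reads.

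Grin1, Grin2a, Grin2b, Grip1 and Grip2 held 9 methylated positions in all, where 24.3% of the 7705 nuclear genes with at least 200 listed positions held any. Grin2b had 5 and each of the others 1. The number per library was 3 and then 2 at rest, 5 and 5 after 2 h, and 2 and 4 after 6 h. Over all libraries, 0.0812% of the listed positions of the 9 genes were methylated in a library, and 0.119% of those of all nuclear genes.

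Of the 4 positions that reached these limits in both replicates at some time, with at least 20 reads, 3 are described here. A Grip1 position, named after its values were seen, also passed in 1 library at each of 2 h and 6 h. Their 21 nt of transcript sequence from GRCm38 are shown because their bases after the cytosine differ, with the cytosine read in capitals.
Grin1 3′ UTR, chr2:25291887, minus strand: aggtgcggacCagagcggctg
Grin2b 3′ UTR, chr6:135713926, minus strand: cacagccctgCaggagtcatt
Grip2 coding, chr6:91775466, minus strand: ccatccatgtCggggaccgga
Grip1 5′ UTR, chr10:119454204, plus strand: ctcaatgtatCggggagtcgc
Both Grip positions were followed by the letters GGGGA, so that CGGGGA is read from the methylated base on, and both NMDA receptor positions shown by AG. CGGGGA was found at 0.0668% of all listed nuclear positions and at 0.523% of the 5931 with a level of at least 10% and 6 methylated reads. Of the 9 genes' 11086 positions, 7 had these letters. The other 5, in Gria1, Grin2b, Grin1 and, for 2 of them, Grip1, were at 1.8% or less in every library that listed them.

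The Grin1 position was methylated in all 6 libraries and did not change beyond counting error. It lies 481 nt after the stop codon, in the last of 21 exons. Its level was 32.6% and 51.7% at rest, 42.2% and 44.4% after 2 h, and 38.7% and 33.7% after 6 h, at 58 to 95 reads. The 0 h libraries were the furthest apart and enclosed all the others. Fisher's exact test on summed reads gave adjusted p = 1.00, 1.00 and 0.645 for rest vs. 2 h, rest vs. 6 h and also 2 h vs. 6 h. Grin1 coverage rose at 6 h, as given above, while no change of the level was detectable at this depth. Of the 16 other cytosines listed within 50 nt, none exceeded 3.8%.

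The 3′ UTR position of Grin2b had its highest levels at 2 h. It lies 18172 nt after the stop codon of a 3′ UTR of 18865 nt. Its level was 8.19% and 11.8% at rest, 15.7% and 32.4% after 2 h, and 4.58% and 4.95% after 6 h, at 74 to 171 reads. The levels of the 3 time points did not overlap, and the 2 h libraries were the furthest apart. The 95% Wilson interval of 2 h replicate 1 (9.89% to 24.0%) overlapped those of both 0 h libraries (4.94% to 13.3% and 7.29% to 18.6%). It also overlapped that of 6 h replicate 2 (2.13% to 11.1%), and the 0 h intervals overlapped the 6 h ones. Only the interval of 2 h replicate 2 (22.9% to 43.7%) lay above those of the 0 h and 6 h libraries. Over summed reads the level was 9.73% at rest, then 22.7% for 2 h and 4.72% for 6 h. The position passed the filter in both replicates only at 2 h, so its being highest there is part of how it was chosen, and the difference is given as a description.

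The coding position of Grip2 passed the filter through its 2 h libraries alone, and its levels are likewise a description. It is the last base of codon 701, a valine codon, in a coding sequence of 1042 codons. Its level was 8.41% in 0 h replicate 2, 27.7% and 22.8% after 2 h, and 2.94% and 2.70% after 6 h, at 107, 83, 57, 34 and 37 reads. In 0 h replicate 1 it was not listed, which means fewer than 10 reads or no unconverted read, and no cytosine within 25 nt was listed there either. Both 2 h libraries lay above the other 3, with 25.7% for 2 h and 2.82% for 6 h over summed reads. The 6 h levels are 1 methylated read each, with 95% Wilson intervals that reach 14.9% and 13.8%. A single other cytosine was listed within 50 nt, at 2.8%.

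The Grip1 position had a level of 10.3% and 3.45% at rest, 19.5% and 14.3% after 2 h, and 7.32% and 11.5% after 6 h, at 29 to 52 reads. Its values were highest at 2 h in both replicates, and their 95% Wilson intervals overlapped those of every other library. It lies 161 nt before the start codon in the first exon of a transcript that differs from the one with the longest coding sequence. The last 4 methylated positions passed in 1 library each. They were a Grin2a 3′ UTR position with 6 of 46 reads methylated in 0 h replicate 1, another Grin2b position, in the coding sequence, with 8 of 47 reads in the same library, and Grin2b 3′ UTR positions with 6 of 23 reads (26.1%) in 2 h replicate 2 and 6 of 50 reads in 6 h replicate 2. The one with 23 reads lay in a stretch where 26 cytosines within 150 nt had levels of at least 10% with 3 to 6 unconverted reads in that library.

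**Figure D4:**
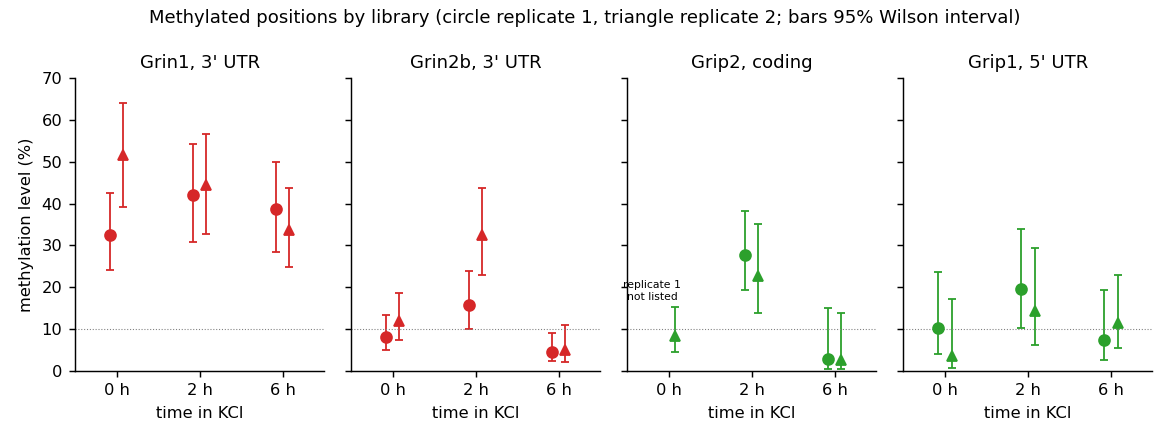
Methylation level (y axis, %) of the Grin1, Grin2b 3′ UTR and Grip2 positions, methylated in both libraries of some time, and of the Grip1 position, at rest and after 2 h and 6 h of KCl. Circles are replicate 1, triangles replicate 2, bars 95% Wilson intervals, which cover counting error only, and the dotted line marks 10%. The Grin2b and Grip2 positions are highest at 2 h, and the Grin1 position stays between 32.6% and 51.7%.

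Of the members' 4 sites, 2 of 3 tested were called for rest vs. 2 h, 1 of 3 for rest vs. 6 h and 2 of 4 for 2 h vs. 6 h, where 9.45%, 7.22% and 11.7% of all sites tested were called. Since the Grin2b 3′ UTR and Grip2 positions were admitted through 2 h alone, nothing is read from these counts. Of the 4 sites, 3 are on the study's list of positions, which was made from these samples, and among the listed positions calls were far more frequent, at 246 of 406, 165 of 399 and 194 of 413. Fisher's exact test on summed reads leaves out the spread between replicates. limma on log2 ratios, which includes it, called no site of the series in any comparison, with 211, 88 and 155 sites at an unadjusted p under 0.05. A quasi-binomial model, which includes it as 1 value over all sites of a comparison, called 192, 31 and 25.

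In the predicted fold of the transcripts at a set temperature of 70 °C, the cytosine was paired with a probability of 0.642 in Grin1, 0.660 in the Grin2b 3′ UTR, 0.308 in Grip2 and 0.164 in Grip1. Of the cytosines of the same transcript, 70.8% in Grin1, 80.4% in Grin2b and 24.2% in Grip2 were less likely to be paired. The Grin1 and Grin2b positions were thus above the median cytosine of their transcripts and the Grip2 position below it.

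Of 19 kainate, delta, metabotropic and further NMDA receptor genes, 12 could be measured in the second fit, and 8 were lower and none higher at 6 h than at 0 h, with a median log2 change of -0.45. Over all 8400 genes, 66.4% were called, 2816 lower and 2762 higher, with a median of 0.01. At 2 h, 1 was higher and 2 were lower, where 39.7% of all genes were called. Among those that fell at 6 h were Grm4 (-2.16, limma adjusted p = 3.37e-05), which encodes a metabotropic receptor, and Grik4 (-1.21, adjusted p = 3.86e-04), which encodes a kainate receptor subunit. Grik1, another kainate receptor subunit gene, rose at 2 h (0.86, limma adjusted p = 0.00261).

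Of 24 genes for proteins that bind or modulate AMPA and NMDA receptors, 23 were measured in the second fit. At 6 h, 13 were lower and 3 higher than at rest, with a median log2 change of -0.36, and at 2 h 3 were lower and 3 higher. The numbers called are to be read against 66.4% of all genes at 6 h and 39.7% at 2 h. Pick1, whose PDZ protein binds the same receptor tails as the GRIP scaffolds, fell by 1.34 at 6 h (limma adjusted p = 2.33e-05). Shisa7 and Cnih3, which encode auxiliary proteins of AMPA receptors, fell by 0.94 and 0.73, and Shisa7 was higher at 2 h (0.54, limma adjusted p = 0.0316). Gripap1, which encodes a GRIP-associated protein and was chosen after its values were seen, had a log2 change of -0.36 at 6 h (limma adjusted p = 0.00154). Dlg1, the gene of the scaffold SAP97, rose by 1.28 (limma adjusted p = 8.40e-05). Cacng7, the gene of an AMPA receptor auxiliary subunit, and Ap2m1, the gene of an endocytic adaptor subunit, rose by 0.34 and 0.17. Ap2m1 did not rise over positions listed in all 6 libraries, with means of 7314 reads per cytosine at rest and 7293 at 6 h. Of the 8 partner genes tested over those positions, 3 were lower and 0 higher at 6 h, where 61.0% of all genes were called. Akap5, an anchoring protein gene, followed Grin2b in direction in the second fit. Its log2 change was -1.09 for rest vs. 2 h and 1.40 for 2 h vs. 6 h (limma adjusted p = 0.00919 and 0.00152).

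The genes whose coverage profile was most like that of Grin1 over the 6 libraries, among 8399, were Rab3gap2, Map3k5 and Trim9, with Pearson's r of 0.999, 0.998 and 0.998. Those most like Grip2 were Fkbp5, Mum1 and Cenpt, with r of 0.999, 0.997 and 0.997. With 6 points, 2 of them per time point, such values describe a shared order of the 3 time points.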

How the data were processed

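RNA BS-seq lists of 6 libraries were analysed. After adapter trimming, meRanTK was used by the authors for alignment (GRCm38) and for calling cytosines library by library; per the labels, build mm10 and R 4.1.1 were used. The deposited read counts (coverage, methylated reads, other bases) are not normalized, and the deposited methylation level is a fraction, methylated reads over methylated and converted reads. Each library has its own deposited list.

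Counts were used as deposited. Deposited p-values and scores of single positions were not used. The 9 genes, gene lists and marker lists were chosen with earlier results of these data known. Coverage per gene was the mean over positions listed in all 6 libraries (at least 10), divided by a library scale, the median ratio over nuclear genes, and tested with limma on log2 values over 2075 genes with Benjamini-Hochberg adjustment at 0.05. The second fit modelled log2 coverage as position plus library (at least 5 positions per library). Sites needed 20 reads, 6 of them methylated, and a level of 10% or more in both libraries of some time, 10 reads in all libraries compared, and were tested with a two-sided Fisher's exact test. Named were all 9 genes, every member site that passed, and for the receptor and partner lists up to 3 called rises and falls, not all of them printed. Of these, 1 site and 1 gene are not reported here. Alternatives were edgeR, DESeq2, other scalings, positions and minimums, a replicate block, Cochran-Mantel-Haenszel, quasi-binomial and limma site tests, and leaving out each library. Labels call the replicates biological, without naming their source. Intervals are 95% Wilson and, without molecular identifiers, cover counting error only. All 11086 contexts equalled GRCm38, segments came from GENCODE M21, and pairing from RNAplfold (ViennaRNA 2.7.2, window 150 nt). The tests were tested on simulated data. Python 3.11.15, R 4.3.3, limma 3.58.1, edgeR 4.0.16 and DESeq2 1.42.0 were used.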

Additional observations from a re-analysis of the deposited data

How the results depend on the processing

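No member value reversed a called direction under any alternative run. Of 148 alternative values for the 11 called coverage changes, 12 lost the call, and of 167 for the 13 uncalled ones, 10 gained one. Of 57 for the 5 called site differences, 12 lost the call. Summed coverage over all listed positions, which moves with the number listed, ended the calls of Grin1, of Grip1, of Grin2b for rest vs. 2 h (limma adjusted p = 0.138) and of Grip2 except rest vs. 6 h. For rest vs. 2 h, rest vs. 6 h and also 2 h vs. 6 h, genes called (565, 1266 and 1033) became 871, 1954 and 1670 with a minimum of 3 positions and 353, 801 and 621 with 30, because other numbers of genes were tested, and 3331, 5578 and 5423 in the second fit, over 8400 genes. Summed coverage, over 8857 genes, gave 531, 1880 and 1641, a lower share for each comparison. Leaving out a library gave 234 to 676, 904 to 1430 and 614 to 1136. Sites called (267, 205 and 343) became 0, 0 and 0 with limma. The quasi-binomial model called 192, 31 and 25. For 2 h vs. 6 h, sites that passed in 1 library gave 547 and the study's list of positions 194. Leaving out a library gave 169 to 254, 147 to 509 and 224 to 590 sites, with 509 and 590 reached without 6 h replicate 2. Taking an unlisted site as unmethylated could not be applied to Grip2, with no cytosine listed nearby. A level of at least 20% left 5 methylated positions, 2 of them in both replicates of a time point, and 3 methylated reads gave 142 positions, 46 of them Grin2b in 2 h replicate 2 and 40 Gria3 in 6 h replicate 1. Over all positions listed in 6 libraries, the highest unconverted share rose from 0.227% to 0.340% for Grin1 and from 0.716% to 2.18% for Grin2b, which adds the methylated positions. The cause of the other changes was not tested.

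Same-numbered libraries deviated together between rest and 2 h (r = 0.449 across genes) and apart for rest vs. 6 h (-0.297) and 2 h vs. 6 h (-0.289). These values cannot show whether same-numbered cultures share a source, and the main fit did not pair them. The replicate block called 523, 1241 and 984 genes and changed no call of a member, and with the 6 h numbers exchanged, chosen after seeing the data, it called 623, 1354 and 1133. The Cochran-Mantel-Haenszel test with the replicate block called 267, 263 and 493 sites. Depth limits Grin2a, Gria3 and Grip2 most, and with 2 libraries per time point an exact permutation test cannot go below p = 0.333.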
